A study of Arabidopsis thaliana with 12 samples.

Results

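The 10 iron storage genes described here are the 4 ferritins FER1 (AT5G01600), FER2 (AT3G11050), FER3 (AT3G56090) and FER4 (AT2G40300), the vacuolar iron transporter VIT1 (AT2G01770), its relatives VTL1 (AT1G21140), VTL2 (AT1G76800) and VTL5 (AT3G25190), and the vacuolar metal exporters NRAMP3 (AT2G23150) and NRAMP4 (AT5G67330). They were taken by identifier from a table of 26568 genes, by a rule that uses no measured value, although the set was proposed with earlier results of these data known. Root RNA was sequenced in 4 groups of 3 libraries: the NH4+-tolerant Arabidopsis thaliana ecotype Or-1 on NH4+ and on NO3-, and the NH4+-sensitive ecotype Rak-2 on NH4+ and on NO3-. All plants spent a week on soil and 5 days in NO3- solution before 1 day on 1 mM (NH4)2SO4 or 1 mM Ca(NO3)2. According to the study's methods, a period without nitrogen, which the deposited labels do not mention, preceded that day. The methods also give the same Fe-EDTA, calcium and buffered pH for both solutions. Additional sulfate came with NH4+, so effects of the nitrogen form and of its counter-ion cannot be told apart. The methods call the 3 libraries of a group biological replicates, and each held between 16005610 and 22388738 counts. The biological coefficient of variation ran from 0.158 in Rak-2 under NH4+ to 0.343 in Rak-2 under NO3-. The root label was checked with 6 root marker genes (CASP1, SHR, SCR, PLT1, COBL9 and EXPA7), which summed to between 149 and 285 CPM (read counts scaled to a common library size, with TMM factors) in every library.

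Iron is needed for respiration, nitrogen assimilation and photosynthesis, but free iron produces reactive oxygen. Plant cells store the surplus inside ferritin, a hollow protein shell located in plastids and, for FER4, also in mitochondria, or move it into the vacuole. VIT1 carries iron into the vacuole, mainly in developing seeds, and the VTL proteins are smaller transporters of the same family. NRAMP3 and NRAMP4 work in the other direction and release vacuolar iron, which is best known from germinating seeds. Ferritin genes, with FER1 as the main one outside seeds, are transcribed more when iron is plentiful, whereas the uptake genes IRT1 and FRO2 are transcribed more when iron is short.

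FER1, VTL1 and VTL5 rose under NH4+ in both ecotypes, and NRAMP3 rose in Or-1. In Or-1, 4 of the 9 genes that could be tested were called, all of them higher under NH4+, where 8.86% of all genes tested were called and 5.26% were called higher. In Rak-2, 3 of 9 were called, again all higher, against a background of 6.09% for all calls and 2.69% for higher calls. A call required a Benjamini-Hochberg false discovery rate under 0.05 in edgeR's quasi-likelihood test over 19327 genes (the edgeR FDR) together with an absolute log2 fold change over 1. With library size alone as the scaling, higher and lower calls among all genes in Rak-2 numbered 687 and 545, beside 519 and 658 with TMM, and the same 3 iron storage genes were called. With the edgeR FDR alone the counts were 4 of 9 in Or-1, where the share of all genes was 15.9%, and 5 of 9 in Rak-2, where it was 11.9%. The median log2 fold change of the 9 genes was 0.54 in Or-1 and 0.77 in Rak-2, beside -0.045 and -0.011 over all genes tested. VIT1 was not tested, since it had 1 count in a single Or-1 NH4+ library, 3 counts in a single Rak-2 NH4+ library and 0 in the other 10 libraries (chr2:334663-336462, minus strand). Levels are given as TMM-scaled CPM, always for replicates 1, 2 and 3 in this order. In bulk RNA, fewer cells of a type and less RNA per cell cannot be told apart.

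**Figure D1:**
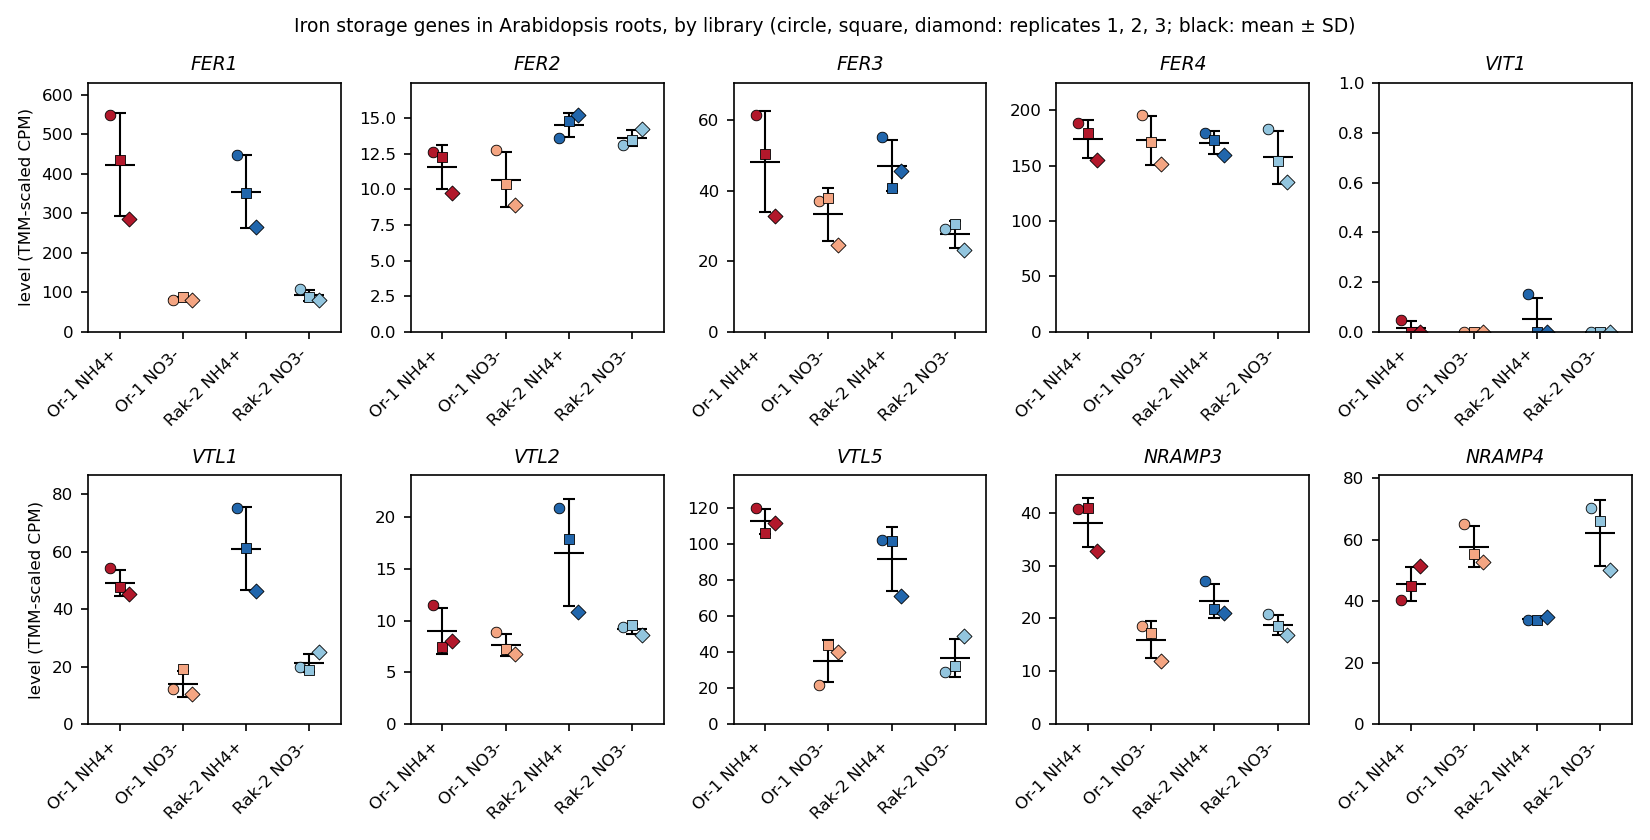
Level of each iron storage gene in TMM-scaled CPM (vertical axes, from 0) in the 12 libraries, by ecotype and nitrogen source (horizontal axes), with the mean and SD of 3 libraries in black. FER1, VTL1, VTL5 and NRAMP3 lie above all NO3- libraries of the same ecotype in every NH4+ library, NRAMP3 by little in Rak-2. FER3 and VTL2 do so in Rak-2 alone. NRAMP4 lies below the NO3- libraries in both ecotypes, and VIT1 stays under 0.2.

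FER1 showed the greatest fold change of the 9 tested genes in both ecotypes. Its level was 548, 436 and 286 CPM in Or-1 under NH4+, against 80.0, 89.1 and 81.7 CPM in Or-1 under NO3-. The lowest NH4+ library thus stood far above the highest NO3- library, while the NH4+ libraries differed among themselves much more than the NO3- ones did. The rise was 5.06-fold, with a log2 fold change of 2.34 ± 0.25 (SE, edgeR FDR = 0.000116). In Rak-2 the level was 448, 350 and 265 CPM under NH4+, against 108, 87.8 and 80.6 CPM under NO3-. The 2 sets of libraries were again fully apart, and the rise was 3.85-fold (log2 fold change 1.95 ± 0.25, edgeR FDR = 0.000725). The response of Or-1 exceeded that of Rak-2 by 0.39 on the log2 scale, with a 95% interval of -0.34 to 1.13 (edgeR FDR = 0.588), so no difference between the ecotypes was resolved. In both ecotypes replicate 1 was the highest and replicate 3 the lowest of the NH4+ libraries. CCA1, a morning gene of the circadian clock named here after its values were seen, had the opposite order, with 5.49, 21.1 and 57.1 CPM in Or-1 under NH4+ and 3.41, 5.18 and 6.76 CPM in Rak-2 under NH4+. Under NO3-, CCA1 stood at 54.2, 89.8 and 86.4 CPM in Or-1 and at 85.7, 37.1 and 73.7 CPM in Rak-2. The 4 morning clock genes listed were CCA1, LHY, PRR9 and PRR7. In Or-1 they summed to 168, 219 and 288 CPM under NH4+, against 295, 368 and 402 CPM under NO3-. In Rak-2 they summed to 198, 221 and 207 CPM under NH4+, against 363, 274 and 388 CPM under NO3-. The NH4+ sums thus rose from replicate 1 to replicate 3 in Or-1 but not in Rak-2. Or-1 had 1 of these 4 genes called lower, beside 3.6% of all genes tested, and Rak-2 had 2, beside 3.4%. Before adjustment, edgeR's test put all 4 morning genes below a p of 0.05 for Or-1, and 3 for Rak-2, each of them lower. The log2 fold change was positive for 0 of the 4 in either ecotype. Of the 4 evening genes (TOC1, GI, ELF4 and PRR5), 0 were called in either ecotype. With the edgeR FDR alone, 1 evening gene was lower in each ecotype, beside 1 morning gene in Or-1 and 2 in Rak-2, also lower. Among all genes tested, 6.96% were lower at that FDR in Or-1 and 6.9% in Rak-2. The unadjusted p of edgeR's test was under 0.05 for 1 evening gene, lower, in Or-1. Rak-2 had 2 such evening genes, 1 higher and 1 lower. The part of these clock genes in the FER1 response was not tested.

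Transcripts of photosynthesis, which mark green tissue and where ferritin is also abundant, varied widely among these root libraries. The 8 genes of that list summed to 235, 4.82 and 347 CPM in Or-1 under NH4+ and to 536, 175 and 797 CPM in Or-1 under NO3-. In Rak-2 they summed to 432, 252 and 1121 CPM under NH4+ and to 12.6, 98.7 and 480 CPM under NO3-. None of the 8 was called in either ecotype by edgeR's test (at an unadjusted p under 0.05, Or-1 had 0 and Rak-2 had 2), and their median log2 fold change had opposite signs in Or-1 (-1.14) and Rak-2 (1.72). In Rak-2 the middle NH4+ value (432 CPM) was above the middle NO3- value (98.7 CPM), in the direction of FER1, with overlapping libraries, and in Or-1 it was below it (235 and 536 CPM), also with overlap. The part of these transcripts in the FER1 response was not tested. No marker of the list was at 0 in all libraries of a group.

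**Figure D2:**
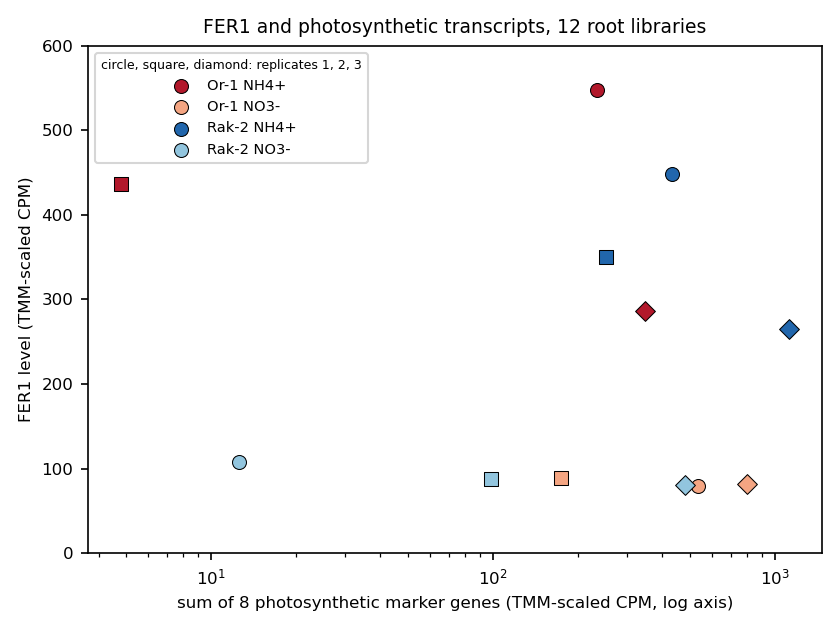
FER1 level (vertical axis, TMM-scaled CPM) against the summed level of 8 photosynthetic marker genes (horizontal axis, log scale) in each of the 12 libraries. The 6 NH4+ libraries lie above 260 CPM and the 6 NO3- libraries below 110 CPM, and the photosynthetic sums of the NH4+ and NO3- libraries overlap in each ecotype.

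The other ferritins had smaller log2 fold changes. FER3, the most like FER4 in coding sequence among the 4 ferritins, had 61.4, 50.5 and 32.9 CPM in Or-1 under NH4+, against 37.2, 38.1 and 24.7 CPM in Or-1 under NO3-. In Rak-2 it had 55.2, 40.8 and 45.6 CPM under NH4+, against 29.2, 30.6 and 23.2 CPM under NO3-. The groups overlapped in Or-1 (log2 fold change 0.54, edgeR FDR = 0.156) and were apart in Rak-2, where the test was narrowly missed (0.77, edgeR FDR = 0.0581). In Or-1, where the replicate numbers were taken as pairs, FER3 was higher under NH4+ in each of the 3 pairs and passed the FDR with the replicate block, short of the fold threshold (log2 fold change 0.52, edgeR FDR = 0.0472). In Rak-2, FER3 passed the FDR with library size alone (edgeR FDR = 0.0261) and in DESeq2 (adjusted p = 0.0185). It also passed with only the Rak-2 libraries in the fit (edgeR FDR = 0.0396). It passed with the block too (edgeR FDR = 0.0124), although the replicate numbers were not taken as pairs in Rak-2. Relative log expression scaling (edgeR FDR = 0.0551) and no filter on low counts (0.0579) gave no pass. With 1 library left out the edgeR FDR ran between 0.0301 and 0.185. FER4 lay between 155 and 189 CPM in Or-1 under NH4+ and between 152 and 195 CPM under NO3-, and in Rak-2 between 159 and 179 CPM under NH4+ and between 135 and 183 CPM under NO3-. Its log2 fold change was 0.01 (95% interval -0.29 to 0.32) in Or-1 and 0.12 (-0.19 to 0.42) in Rak-2. FER2, known mostly from seeds, was the lowest ferritin, with between 9.77 and 12.6 CPM in Or-1 under NH4+ and between 8.91 and 12.7 CPM under NO3-. In Rak-2 it had between 13.6 and 15.2 CPM under NH4+ and between 13.1 and 14.2 CPM under NO3-. The log2 fold changes of FER2 were 0.12 (-0.23 to 0.46) and 0.10 (-0.25 to 0.44), intervals that hold for the deposited row. FER2 is at chr3:3463477-3465506 on the plus strand.

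The FER2 and FER4 rows may hold more than the ferritin. The deposited table gives FER2 a length of 3548 bases and FER4 one of 2849 bases, whereas their exons cover 1148 and 1252 bases in the RefSeq annotation of TAIR10.1. Each overlaps a gene on the same strand (AT3G11040 and AT2G40290), which has no row of its own, and the exons of both genes together cover 3622 and 2862 bases. Reads of the neighbour and of the ferritin therefore cannot be told apart in these rows. The lengths of the other 8 genes equal their annotated exons. FER1 overlaps a non-coding RNA (AT5G01595) on the opposite strand by 1334 bases, and reads of that gene cannot be told apart from FER1 reads where strand was not used, which the sources used here do not state. Coding sequences of the ferritins were 69.6% to 79.5% identical, and the longest run shared by any pair was 32 bases, between FER3 and FER4.

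The 250 bases before the start of FER1 are shown beside those of FER3, since these ferritins share a fold and differ in response. They are from the Columbia reference (RefSeq, TAIR10.1), not from Or-1 or Rak-2. FER1 is at chr5:227953-230051 on the minus strand, with its upstream bases at chr5:230052-230301. FER3 is at chr3:20813904-20816035 on the minus strand, with its upstream bases at chr3:20816036-20816285. Each gene has 8 exons. Capitals mark the G-box CACGTG.
FER1: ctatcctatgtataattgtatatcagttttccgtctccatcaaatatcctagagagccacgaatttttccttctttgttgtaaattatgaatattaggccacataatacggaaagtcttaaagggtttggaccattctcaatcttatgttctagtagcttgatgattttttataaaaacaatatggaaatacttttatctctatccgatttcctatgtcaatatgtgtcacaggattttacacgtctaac
FER3: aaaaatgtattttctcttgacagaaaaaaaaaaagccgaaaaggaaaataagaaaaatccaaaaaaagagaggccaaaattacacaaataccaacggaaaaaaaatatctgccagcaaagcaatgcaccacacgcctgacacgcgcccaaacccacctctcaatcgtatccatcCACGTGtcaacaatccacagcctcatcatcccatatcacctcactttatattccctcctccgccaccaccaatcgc
Windows of 250 bases before and 50 after the start are described for 9 of the 10 genes. Among these the G-box occurred in FER3 (first base at -76) and FER2 (at 32, inside the transcript), and it occurred in 7.68% of 27443 promoters. FER1, with the greatest fold change, had none in this window. The core of the iron-dependent regulatory sequence, GAGNCCNCC, and the phosphate starvation element P1BS, GNATATNC, occurred in 0.583% and 6.25% of promoters on either strand and in none of the 9 windows. No matches overlapped in these windows. Bases outside these windows were not searched, so an element farther upstream or deeper in the transcript would not be seen here. A match is a description of letters in the reference.

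Among the vacuolar importers, VTL1 and VTL5 rose in both ecotypes. VTL1 had 54.3, 47.6 and 45.4 CPM in Or-1 under NH4+, against 12.1, 19.2 and 10.4 CPM in Or-1 under NO3-. Rak-2 had 75.3, 61.2 and 46.5 CPM under NH4+, against 19.9, 18.9 and 24.99 CPM under NO3-. NH4+ and NO3- libraries did not overlap in either ecotype. The fold change was 3.53 in Or-1 (log2 1.82 ± 0.24, edgeR FDR = 0.000452) and 2.87 in Rak-2 (log2 1.52 ± 0.24, edgeR FDR = 0.00242). VTL5, the VTL gene with the highest level, had 120, 106 and 111 CPM in Or-1 under NH4+, against 21.7, 43.7 and 39.8 CPM in Or-1 under NO3-. VTL5 in Rak-2 had 102, 101 and 70.9 CPM under NH4+, against 29.0, 32.0 and 48.9 CPM under NO3-. The libraries were again apart, most clearly in Or-1, where the 3 NH4+ values lay close together. VTL5 rose 3.21-fold in Or-1 (log2 1.68 ± 0.27, edgeR FDR = 0.00152) and 2.50-fold in Rak-2 (log2 1.32 ± 0.27, edgeR FDR = 0.00975). The response of Or-1 minus that of Rak-2 was 0.30 (95% interval -0.42 to 1.02) for VTL1 and 0.36 (-0.45 to 1.18) for VTL5 on the log2 scale, and neither passed the test. When edgeR tested against the fold threshold itself (glmTreat), VTL1 kept its call in Or-1 (adjusted p = 0.0213) but not in Rak-2 (0.212), and VTL5 was called in neither (0.0801 and 0.794), while FER1 was called in both (0.00191 and 0.0211). VTL5 is at chr3:9174398-9175866 on the plus strand, with 2 exons.

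VTL2 did not pass the call in either ecotype. It had 11.5, 7.43 and 8.02 CPM in Or-1 under NH4+, against 8.88, 7.28 and 6.80 CPM in Or-1 under NO3-, and these libraries overlapped (log2 fold change 0.23, edgeR FDR = 0.577). In Rak-2 it had 20.9, 17.9 and 10.9 CPM under NH4+, against 9.42, 9.58 and 8.64 CPM under NO3-. All 3 Rak-2 NH4+ libraries were higher, and the log2 fold change of 0.85 passed the FDR but not the fold threshold (edgeR FDR = 0.0457). That pass was kept in 4 of 12 fits that each left out 1 library, where the edgeR FDR ran between 0.0157 and 0.175. It was lost with only the Rak-2 libraries in the fit (edgeR FDR = 0.0938). It held with library size alone (edgeR FDR = 0.0241), relative log expression scaling (0.0437) and no filter on low counts (0.0491). DESeq2 also passed it (adjusted p = 0.0117). So did the replicate block (edgeR FDR = 0.0193), although the replicate numbers were not taken as pairs in Rak-2. The responses of the ecotypes differed by -0.61 (95% interval -1.37 to 0.15), which was not resolved.

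The upstream bases of VTL1 and VTL2 are shown because these genes had the most similar coding sequences of the 3 VTL genes compared (77.1% identical, against 68.9% for VTL1 with VTL5 and 66.1% for VTL2 with VTL5), while VTL2 was not called in either ecotype. VTL1 is at chr1:7404328-7405426 and VTL2 at chr1:28829243-28830278, both on the plus strand and each with 1 exon, and the bases shown are chr1:7404078-7404327 and chr1:28828993-28829242 of TAIR10.1. Capitals mark stretches covered by runs of at least 12 bases that both sequences hold.
VTL1: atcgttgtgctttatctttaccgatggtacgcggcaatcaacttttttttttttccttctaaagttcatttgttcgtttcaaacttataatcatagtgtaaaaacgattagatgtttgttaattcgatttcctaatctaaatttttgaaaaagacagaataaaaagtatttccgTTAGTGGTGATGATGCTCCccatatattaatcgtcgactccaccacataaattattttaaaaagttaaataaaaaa
VTL2: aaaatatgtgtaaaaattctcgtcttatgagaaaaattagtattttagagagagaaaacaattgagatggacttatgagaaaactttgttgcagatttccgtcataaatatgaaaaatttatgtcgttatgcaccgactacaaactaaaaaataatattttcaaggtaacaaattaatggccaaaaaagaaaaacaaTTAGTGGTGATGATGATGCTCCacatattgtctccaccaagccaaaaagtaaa
The capitals span 19 bases in VTL1 and 22 in VTL2, where a triplet is repeated once more. How often other promoter pairs share such a run was not computed.

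Of the vacuolar exporters, NRAMP3 rose in Or-1. It had 40.6, 41.0 and 32.8 CPM in Or-1 under NH4+, against 18.6, 17.3 and 12.002 CPM in Or-1 under NO3-. All NH4+ libraries lay above all NO3- libraries, and the rise was 2.39-fold (log2 1.26 ± 0.18, edgeR FDR = 0.000762). Rak-2 had 27.1, 21.9 and 21.1 CPM under NH4+, against 20.8, 18.6 and 16.9 CPM under NO3-. The Rak-2 libraries were also apart, but by little, and the log2 fold change of 0.32 did not pass (95% interval -0.07 to 0.70, edgeR FDR = 0.268). The response of Or-1 exceeded that of Rak-2 by 0.94 on the log2 scale, with a 95% interval of 0.39 to 1.49 and an unadjusted p of 0.00303. After adjustment over all genes this difference was not called (edgeR FDR = 0.0917). It passed the FDR with the replicate number as a block (edgeR FDR = 0.0235) and in DESeq2 (adjusted p = 0.0138), with a log2 difference of 0.96 in each. The block included Rak-2, where the replicate numbers were not taken as pairs. The difference missed the FDR with library size alone (edgeR FDR = 0.102), relative log expression scaling (0.086) and no filter on low counts (0.101). With 1 library left out it passed in 0 of 12 fits, where the edgeR FDR ran between 0.0564 and 0.227. Tested against the fold threshold itself, the rise in Or-1 was no longer called (glmTreat adjusted p = 0.434). NRAMP3 is at chr2:9856149-9858778 on the minus strand, with 4 exons.

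NRAMP4, with 73.3% of aligned coding bases identical to NRAMP3, had lower means under NH4+. It had 40.5, 45.02 and 51.4 CPM in Or-1 under NH4+, against 65.2, 55.2 and 52.7 CPM in Or-1 under NO3-, with a log2 fold change of -0.34 that did not pass (edgeR FDR = 0.141). Rak-2 had 33.7, 33.95 and 34.7 CPM under NH4+, against 70.4, 66.2 and 49.98 CPM under NO3-. The Rak-2 NH4+ libraries were nearly equal and all lower, and the log2 fold change was -0.87 ± 0.14 (edgeR FDR = 0.00349), which passed the FDR but not the fold threshold. That pass was kept in 12 of 12 fits with 1 library left out. The response of Or-1 minus that of Rak-2 was 0.53 on the log2 scale (95% interval 0.08 to 0.97), which did not pass (edgeR FDR = 0.206). NRAMP4 is at chr5:26861266-26863897 on the plus strand, with 3 exons.

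**Figure D3:**
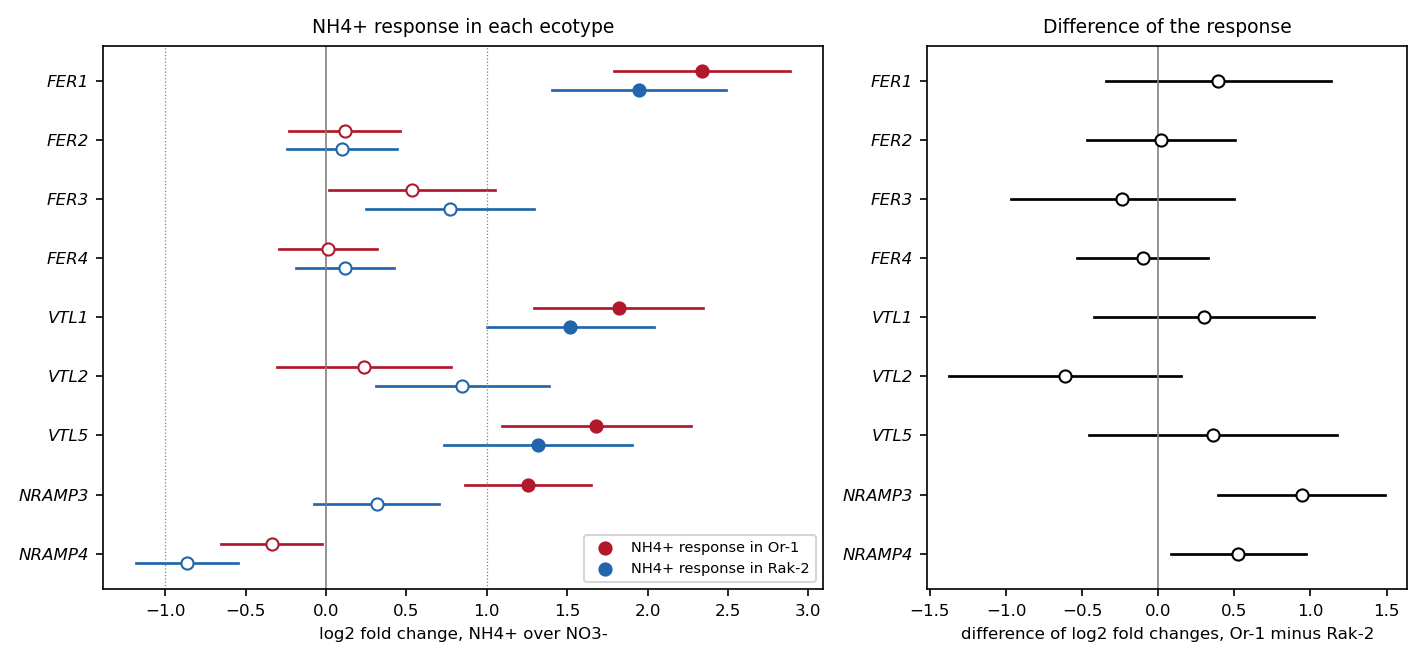
Left, log2 fold change of NH4+ over NO3- for the 9 tested iron storage genes in Or-1 (red) and Rak-2 (blue), with 95% intervals from the edgeR fit; filled points were called and dotted lines mark the fold threshold. Right, the difference of these responses, Or-1 minus Rak-2, where none of the 9 was called and the intervals of NRAMP3 (0.39 to 1.49) and NRAMP4 (0.08 to 0.97) exclude 0.

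Or-1 was set against Rak-2 within each nitrogen source. Under NH4+, edgeR called 0 of 9 between Or-1 and Rak-2, where it called 12.2% of all genes tested, and DESeq2 also called 0. Unadjusted, 3 of 9 had a p under 0.05. With the edgeR FDR alone, 2 of 9 passed under NH4+, beside 22.7% of all genes. These were NRAMP3, higher in Or-1 by 0.71 on the log2 scale (edgeR FDR = 0.0142), and VTL2, lower in Or-1 by 0.88 with libraries that overlapped (log2 fold change -0.88, edgeR FDR = 0.0236). Without Or-1 NH4+ replicate 1, or without Rak-2 NH4+ replicate 3, VTL2 passed the fold threshold as well (log2 fold changes -1.10 and -1.11), and without replicate 2 of either NH4+ group neither gene passed the FDR. NRAMP4, higher in Or-1 by 0.42 on the log2 scale with libraries apart, missed the FDR (edgeR FDR = 0.0576). It passed with only the NH4+ libraries in the fit (edgeR FDR = 0.0259), with no filter on low counts (0.0493) and in DESeq2 (adjusted p = 0.0359). It missed with library size alone (edgeR FDR = 0.0772), relative log expression scaling (0.0555) and the replicate block (0.06). With 1 library left out it passed in 3 of 12 fits. Under NO3-, 0 of 9 were called, where the share of all genes was 8.64%, and 0 of 9 passed the FDR alone, where it was 13.9%. In edgeR's test FER2 (unadjusted p = 0.047) and VTL1 (unadjusted p = 0.0243) were below 0.05, both lower in Or-1, and DESeq2 called 0 of 9. For the difference of the response, 0 of 9 were called and 0 of 9 passed the FDR alone, beside 1.23% and 1.46% of all genes. Here 2 of 9, NRAMP3 and NRAMP4, had an unadjusted p under 0.05 in edgeR, and DESeq2 called 0 and passed 1 on its adjusted p alone. The comparisons share libraries with the 2 NH4+ responses, so they are not separate evidence.

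Levels of different genes were compared per length (CPM per kilobase of the deposited gene length, mean ± SD of 3 libraries), leaving out FER2 and FER4 for their uncertain lengths. In Or-1 under NH4+ the order was FER1 (298 ± 92.4), VTL5 (110 ± 6.85), VTL1 (44.7 ± 4.22), FER3 (37.8 ± 11.3), NRAMP4 (18.9 ± 2.29), NRAMP3 (18.9 ± 2.30) and VTL2 (8.68 ± 2.13). VTL1 and FER3, and NRAMP4 and NRAMP3, overlapped within 1 SD. In Or-1 under NO3- it was FER1 (58.8 ± 3.43), VTL5 (34.4 ± 11.5), FER3 (26.1 ± 5.89), NRAMP4 (23.9 ± 2.74), VTL1 (12.7 ± 4.23), NRAMP3 (7.92 ± 1.73) and VTL2 (7.39 ± 1.05). Here the neighbours VTL5 and FER3, FER3 and NRAMP4, VTL1 and NRAMP3, and NRAMP3 and VTL2 overlapped in this way. In Rak-2 under NH4+, FER1 (250 ± 64.6) was again first, followed by VTL5 (89.9 ± 17.6), VTL1 (55.5 ± 13.1) and FER3 (37.0 ± 5.72). In Rak-2 under NO3-, FER1 (64.8 ± 9.98) and VTL5 (36.0 ± 10.6) led, and VTL1 (19.4 ± 2.97) came after NRAMP4 (25.8 ± 4.47) and FER3 (21.7 ± 3.05). Overlapping neighbours among those named for Rak-2 were VTL1 and FER3 under NH4+, and VTL5 and NRAMP4, NRAMP4 and FER3, and FER3 and VTL1 under NO3-. FER1 had the highest mean of these 7 genes in all 4 groups. With its deposited length, which may not be that of the ferritin, the FER4 row had 60.6 ± 7.70 in Or-1 under NO3-. It had 55.3 ± 8.37 in Rak-2 under NO3-, and it overlapped FER1 within 1 SD in both. Under NO3- the mean of the FER4 row was above that of FER1 in Or-1 and below it in Rak-2. The mean of VTL1 was above those of FER3 and NRAMP4 under NH4+ and below them under NO3- in each ecotype.

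Across the 12 libraries, which include the nitrogen contrast itself, the levels of FER1 went most closely with VTL1 (Pearson r = 0.923), VTL5 (0.916), NRAMP3 (0.847) and FER3 (0.827), on log2 CPM. NRAMP4 ran against FER1 (-0.777), VTL1 (-0.818) and VTL5 (-0.809). Over all other genes tested, the 3 most like FER1 were AT3G22240 (r = 0.981), POP2 (0.978), which encodes the GABA transaminase, and NLP5 (0.977), a NIN-like protein. The 3 most like VTL5 were KCS2 (0.969), a fatty acid elongase of suberin, ABI1 (0.960), a phosphatase of abscisic acid signalling, and ORP2A (0.959). These are descriptions over libraries that share their groups.

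The remaining iron genes were counted from lists, and the named ones are those called in either ecotype. Of 6 uptake genes, 5 were called lower in Or-1 and 4 in Rak-2, where 3.6% and 3.4% of all genes tested were called lower. IRT1, the iron transporter of the root surface, had 11.9, 8.15 and 8.36 CPM in Or-1 under NH4+, against 73.3, 59.4 and 59.0 CPM in Or-1 under NO3-. Rak-2 had 16.2, 14.2 and 8.77 CPM under NH4+, against 402, 250 and 81.1 CPM under NO3-. Every NH4+ library of IRT1 was lower than every NO3- library, and the log2 fold change was -2.75 (Or-1) and -4.22 (Rak-2). The ferric reductase FRO2 fell with it (-3.15 and -4.14), as did the regulators FIT (-2.01 and -1.69) and MYB72 and, in Or-1, MYB10 (-1.47). MYB72 was also low, with 1, 3 and 11 counts in Or-1 under NH4+, against 18, 12 and 40 counts under NO3-, and with 2, 4 and 3 counts in Rak-2 under NH4+, against 18, 21 and 21 counts under NO3-. Of 16 regulators of the iron deficiency response, Or-1 had 5 called lower and Rak-2 had 6, and none was called higher. These were the transcription factors bHLH38 (-3.42 and -4.33), bHLH39 (-1.43 and -2.51) and bHLH100, the ubiquitin ligase BTSL1 (-1.96 and -2.02), the peptide IMA2 (-2.30 and -2.42) and, in Rak-2, BTS (-1.13). For bHLH100, whose fitted fold change depends on the prior count at such low counts, the data were 0, 4 and 0 counts in Or-1 under NH4+, against 7, 25 and 23 counts in Or-1 under NO3-. Rak-2 had 1, 1 and 4 counts of bHLH100 under NH4+, against 73, 142 and 93 counts under NO3-. FER1, VTL1 and VTL5 thus rose in the libraries in which these uptake genes and regulators fell.

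Of 13 genes for iron chelation and movement between cells, 10 were tested, of which 3 were called lower and 1 higher in Or-1 and 4 lower and 1 higher in Rak-2. Among all genes tested, 3.6% were called lower and 5.26% higher in Or-1, and 3.4% lower and 2.69% higher in Rak-2. Lower were NAS1 (log2 fold change -3.50, Or-1, and -2.22, Rak-2) and, in Or-1, NAS2 (-1.72), which make the chelator nicotianamine, and FPN2 (-1.75 and -1.05), a vacuolar metal importer. OPT3 (-2.17), a transporter of the phloem, and the ferric reductase FRO3 (-1.57) were called lower in Rak-2. The citrate exporter FRD3 was higher (1.73 and 1.25). Among 9 other VIT-like and NRAMP genes and MTP8, 6 were tested. NRAMP1, an uptake transporter for manganese and iron, was called lower in Or-1 (-1.03). VTL4 had 7, 5 and 5 counts in Or-1 under NH4+ and 0 in all Or-1 NO3- libraries, which is at least 1.69-fold higher when 3 counts are set as the floor per library. In Rak-2, VTL4 had 123, 84 and 55 counts under NH4+, against 5, 9 and 12 counts under NO3-, a log2 fold change of 3.19 (edgeR FDR = 0.00213). Of 8 genes for organelle iron, 7 were tested and 1 was called, the mitochondrial carrier MIT2 in Or-1 (1.03).

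**Figure D4:**
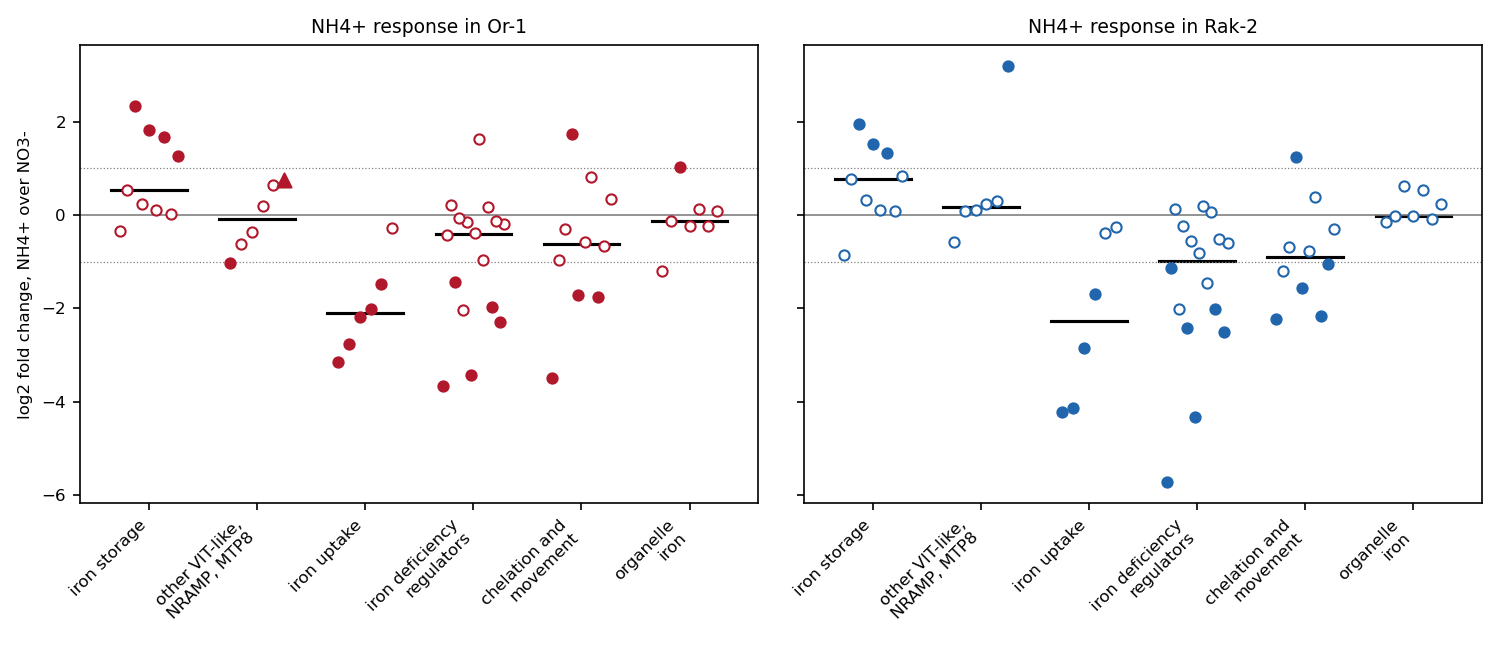
Log2 fold change of NH4+ over NO3- (vertical axis) for the tested genes of 6 iron lists (horizontal axis) in Or-1 (left) and Rak-2 (right); filled points were called, black bars are list medians, dotted lines mark the fold threshold, and the triangle is the lower bound of VTL4 in Or-1; bHLH100 and MYB72, with low counts under NH4+, are at their fitted values. The iron storage medians, with VIT1 left out as not tested, are 0.54 and 0.77, and those of iron uptake -2.09 and -2.27.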

How the data were processed

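The authors sequenced root RNA in 12 libraries (NEBNext Ultra kit, Illumina) and deposited unnormalized read counts per gene and library with a gene length; the aligner, counting program, strand setting and genome build are not given in the sources used here. The 3 deposited tables of differentially expressed genes hold the authors' own fold changes and p-values and were not used. Groups came from the sample titles, which do not name the ecotypes. The names Or-1 and Rak-2 were matched through the paper to the labelled tolerant and sensitive phenotypes. All 12 libraries were fitted together, with 1 coefficient per group, in edgeR 4.0.16 (R 4.3.3). Genes passed filterByExpr (minimum count 10, minimum total 15), which kept 19327 of 26568 genes, libraries were scaled by TMM, and the quasi-likelihood test was adjusted by the Benjamini-Hochberg method over all genes tested. Correlations used log2 CPM with a prior count of 2. The procedure was tested on simulated counts in which all groups had the same spread per gene. The unequal spread of these groups was not simulated. Bounds on folds use a floor of 3 counts per library, which covers counting error alone.

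The members and gene lists were chosen with earlier results of these data known. All 10 members are named; of other iron genes, those called in either NH4+ response; and the 3 genes most correlated with FER1 and with the VTL gene of highest mean CPM. Alternatives were other scalings, no filter, only the groups compared, a replicate block, a test against the fold threshold, DESeq2 1.42.0 and leaving out each library. Titles number the replicates 1 to 3. The block fitted the same shift per replicate number in all groups, whether or not the numbers were taken as pairs. Deviations from the group means of samples with one number correlated at 0.305, 0.296 and 0.445 between the nitrogen sources in Or-1 and at 0.216, 0.285 and 0.336 between the ecotypes under NH4+, so the numbers were taken as pairs there, but not in Rak-2 (0.137, -0.029 and 0.303) or under NO3- (0.495, 0.047 and 0.541). Gene positions, exons, overlaps, promoters and coding sequences were read from RefSeq TAIR10.1 with Biopython 1.88; positions are those of this reference. VTL3, YSL1 and ZIF1 were not analysed here, and 1 promoter window is not reported here.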

Additional observations from a re-analysis of the deposited data

How the results depend on the processing

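In Or-1 the same 4 genes, and under NO3- and for the difference of the response none, were called in every fit other than the test against the fold threshold (18, 18 and 17 fits). In Rak-2 the same 3 were called in 16 of 18 fits, and between the ecotypes under NH4+ none in 16 of 18. In Rak-2, leaving out NH4+ replicate 3 added VTL2 (log2 fold change 1.08) and leaving out NO3- replicate 3 added NRAMP4, at the fold threshold. Tested against the fold threshold, a stricter test by construction, 2 iron storage genes were called in Or-1 and 1 in Rak-2; all genes called numbered 594 in Or-1, 274 in Rak-2, 997 and 790 between the ecotypes under NH4+ and NO3-, and 6 for the difference of the response, beside 1712, 1177, 2359, 1670 and 237.

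With the replicate block, the difference of the response gave 398 genes and 1 iron storage gene at FDR alone (NRAMP3), with DESeq2 716 and 1. The block raised FDR-alone counts to 5 (Or-1) and 6 (Rak-2) and changed no other call of an iron storage gene. With 1 library left out, the difference of the response called 69 to 613 genes, with the extremes without Rak-2 NH4+ replicate 1 and without Rak-2 NO3- replicate 3. The Rak-2 response called 755 to 1742 (without the same 2 libraries), and between the ecotypes under NH4+ 0 to 1 iron storage genes were called and 0 to 3 passed at FDR alone, the last being 0 to 1 under NO3-, where VTL1 passed without Or-1 NO3- replicate 2.

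Signs turned only for uncalled values near 0. Between the ecotypes under NH4+, FER3 gave -0.049 and FER4 -0.05 with library size alone, FER3 -0.009 with the block, and with 1 library left out FER3 ran from -0.178 to 0.246 and FER4 from -0.029 to 0.109. FER4 in the Or-1 response ran from -0.047 to 0.133, and VTL5 under NO3- from -0.251 to 0.203. For the difference of the response FER2 gave -0.11 with library size alone and ran from -0.083 to 0.179, and FER4 from -0.236 to 0.007. The causes were not tested. Library size alone moved the median log2 fold change of all genes to 0.113 in Rak-2 and -0.142 for the difference of the response, beside -0.011 and -0.01, and the share of higher calls to 55.8% and 75.3%, beside 44.1% and 87.8%. Depth limits VIT1, with at most 3 counts in a library, and 3 libraries per group limit small differences between the ecotypes.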
